A study of Mus musculus with 2 samples.

Results

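Tetraspanins are small proteins that cross the plasma membrane or endosome membrane several times and gather other proteins, such as integrins, receptors and proteases, into shared membrane patches. Their large extracellular loop carries a cysteine-cysteine-glycine sequence that is the signature of the family. In macrophages they are known for roles in adhesion, cell fusion, antigen presentation and the release of extracellular vesicles. The 7 genes described here, Cd9, Cd37, Cd53, Cd63, Cd81, Cd82 and Cd151, are known from the surface or endosomes of macrophages and other white blood cells. They were chosen by gene name among the 55536 genes of the tables, and all 46 annotated transcript models of the 7 genes were included.

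The RNA came from the nucleoplasmic fraction of bone-marrow-derived macrophages, cells grown out of bone marrow, from C57BL/6J mice. All cells had been exposed to Lipid A, the part of bacterial lipopolysaccharide that activates Toll-like receptor 4, at 100 ng/ml for 40 minutes. The 2 libraries form 1 group, so the data hold no comparison between conditions. Untreated cells, and other fractions of the treated ones, were not analysed here. The libraries were made after removal of ribosomal RNA and are labelled as biological replicates 1 and 2. Both carry the same donor identifier, and sex and age were not collected, so the spread between them may be technical. Replicate 1 was made from 1 µg of RNA and replicate 2 from 500 ng, and input and replicate cannot be told apart.

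The alignment-based gene tables held 19630046 and 18434601 expected counts, the tables made directly from the reads 26929533 and 33536257. Protein-coding genes held 31.2% of the summed TPM (a level corrected for transcript length and library depth) in replicate 1 and 22.6% in replicate 2, so that the same amount relative to other protein-coding RNA had a lower TPM in replicate 2. All 9 macrophage markers on the list, among them Csf1r, Adgre1 and Cd68, reached a TPM of 1 in both libraries, with mean TPM from 13.5 to 1542. Of 35 markers of 9 other cell types, 3 reached it in the alignment-based table: the platelet genes Pf4 (35.2 and 30.1 TPM) and Gp9, and the endothelial gene Kdr. In the table made directly from the reads 4 of the 35 reached it: Pf4, Kdr, the T-cell gene Cd3d (2.38 and 4.28 TPM) and the endothelial gene Pecam1 (2.58 and 5.24). A total of 9 markers had no count in the alignment-based table of either library, and 6 of them were at 0 in both tables. In such bulk RNA, fewer cells of a type and less RNA per cell cannot be told apart.

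The sequence signature was present once in every coding region between codons 100 and 200. A search of the coding sequences of 1 full-length model per gene in GENCODE M21 (mm10) for in-frame codons reading TGC or TGT, TGC or TGT, then GGN gave the following 57-base stretches. They are written 5′ to 3′ on the coding strand, with the codons for cysteine, cysteine and glycine in capitals, and are shown because they define the family and because each spans an exon junction.
Cd9: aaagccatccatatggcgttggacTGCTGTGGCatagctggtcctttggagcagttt
Cd81: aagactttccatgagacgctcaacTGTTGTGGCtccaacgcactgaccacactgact
Cd151: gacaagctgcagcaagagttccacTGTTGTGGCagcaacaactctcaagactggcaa
Cd37: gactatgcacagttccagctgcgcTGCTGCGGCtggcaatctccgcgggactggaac
Cd53: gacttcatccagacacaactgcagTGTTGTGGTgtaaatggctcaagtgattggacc
Cd63: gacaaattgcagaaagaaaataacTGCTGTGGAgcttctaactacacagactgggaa
Cd82: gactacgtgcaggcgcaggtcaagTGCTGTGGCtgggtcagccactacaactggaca

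The coding regions searched were 678 bases long in Cd9, 708 in Cd81, 759 in Cd151 and 843 in Cd37. Those of Cd53, Cd63 and Cd82 had 657, 714 and 798 bases. The first cysteine codon was codon 150 in Cd9, 156 in Cd81, 155 in Cd151 and 152 in Cd37. This first cysteine codon was codon 144 in Cd53, 145 in Cd63 and 149 in Cd82. In all 7 genes an intron lay exactly 6 bases before that codon, between codons and not within one. The intron at this shared place differed in length from 84 bases in Cd151 to 4034 bases in Cd53. It measured 97 bases in Cd63, 123 in Cd9, 308 in Cd81, 471 in Cd37 and 1071 in Cd82. Cd9, Cd63 and Cd81 held 1 further in-frame match each, at codons 76, 72 and 227. The whole coding sequences, signature included, were only distantly alike. Over the 21 pairs, base identity in global alignments ran from 56.7% (Cd9 with Cd53) to 65.2% (Cd9 with Cd151), with a median of 61.3%. Identity was taken over aligned bases, with gaps left out. No stretch of 31 bases was shared between any pair of the 7 genes.

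All 7 genes were detected, meaning a TPM of at least 1 in both libraries, against 40% of 22028 protein-coding genes. This count is a description and no test, since the 7 were chosen as macrophage genes and with earlier results of these data known. The median level of the 7 genes was 24.84 TPM in replicate 1 and 17.09 in replicate 2 (20.97 ± 5.48, SD, n = 2). Detected protein-coding genes had medians of 8.64 and 6.12 TPM. Mean levels spanned 30.3-fold, from Cd63 to Cd151. Cd63 and Cd53 together held 68.5% of the summed TPM of the 7 genes in replicate 1 and 79.6% in replicate 2.

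**Figure D1:**
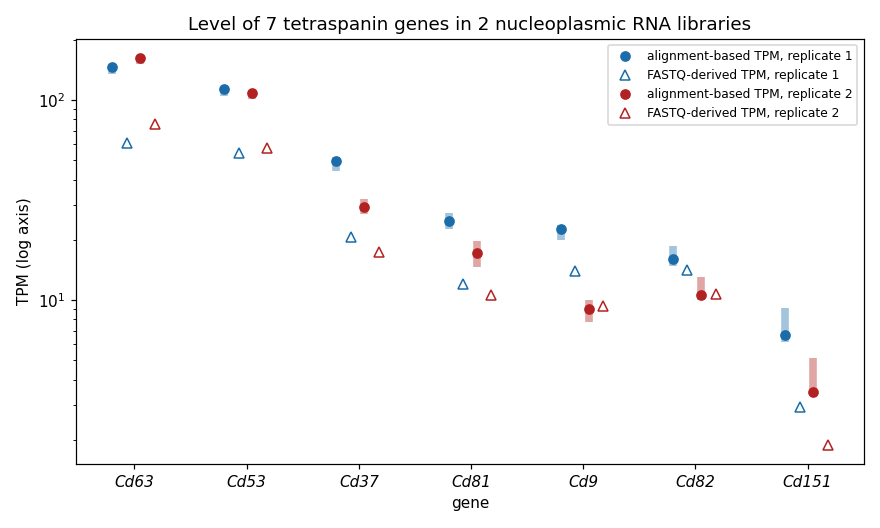
TPM of the 7 genes on a log axis in each library, with filled circles for the alignment-based table, shaded bars for its deposited credibility interval and open triangles for the table made directly from the reads. Cd63 and Cd53 lie above 100 TPM in both libraries of the alignment-based table and Cd151 is lowest in both tables.

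Cd63 and Cd82 encode the members known from late endosomes and lysosomes. Cd63, the classical marker of multivesicular bodies and exosomes, lies on chr10:128900989-128912822 on the forward strand. It had the highest level of the 7, 146 TPM in replicate 1 and 162 TPM in replicate 2 (154 ± 11.0, SD, n = 2), from 2937 and 4106 expected counts, and ranked 227 among the protein-coding genes by mean TPM. Cd82, also called KAI1 and known as a suppressor of cell motility, lies on chr2:93419111-93463140 on the reverse strand. It had 15.95 and 10.64 TPM (13.3 ± 3.75, SD, n = 2), from 449 and 404 expected counts. The values of the 2 genes did not overlap.

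Cd53 and Cd37 encode the leukocyte-restricted members. Cd53, a pan-leukocyte surface protein, lies on chr3:106759921-106790149 on the reverse strand. It had 113.9 and 108.3 TPM (111 ± 3.97, SD, n = 2), from 3763 and 4691 expected counts, and was the most even of the 7 genes in TPM. Cd37, best known from B cells and also present on myeloid cells, lies on chr7:45233632-45239115 on the reverse strand. It had 49.26 and 29.14 TPM (39.2 ± 14.2, SD, n = 2), from 1495 and 1251 expected counts. Both genes were above the median of detected genes in both libraries.

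Cd81, Cd9 and Cd151 encode members known as partners of integrins. Cd9 and Cd81 are also known as partners of the immunoglobulin-family proteins EWI-2 and EWI-F. Both are further known to restrain fusion of macrophages into giant cells. Cd81, on chr7:143052739-143067934 on the forward strand, had 24.84 and 17.09 TPM (20.97 ± 5.48, SD, n = 2), from 698 and 403 expected counts. Cd9, on chr6:125460266-125494791 on the reverse strand, had 22.71 and 9.03 TPM (15.87 ± 9.67, SD, n = 2), from 494 and 251 expected counts. Its replicates differed more than those of any other of the 7 genes in alignment-based TPM, by 2.51-fold. In the table made directly from the reads this did not hold. There Cd9 had 14.0 and 9.36 TPM, and the fold difference of Cd151, with 2.92 and 1.89 TPM, was slightly larger. Cd151, on chr7:141467392-141471473 on the forward strand, had the lowest level, 6.70 and 3.47 TPM (5.08 ± 2.28, SD, n = 2), from 202 and 146 expected counts. It was the only one of the 7 below the detected-gene median in both libraries.

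In order of mean TPM the genes ran Cd63, Cd53, Cd37, Cd81, Cd9, Cd82 and Cd151. The ranges over the 2 libraries did not overlap between Cd63 and Cd53, Cd53 and Cd37, Cd37 and Cd81, or Cd82 and Cd151. They overlapped between Cd81 and Cd9 and between Cd9 and Cd82, and these neighbours did not differ beyond their spread over the libraries. Within each library, however, Cd81 was above Cd9, by 1.09-fold in replicate 1 and 1.89-fold in replicate 2. Cd9 and Cd82 changed order, with Cd9 higher in replicate 1 and Cd82 higher in replicate 2. In the table made directly from the reads Cd63, Cd53 and Cd37 again came first and Cd151 last, with Cd82, Cd9 and Cd81 in that order between them. The mean TPM there was lower for 5 of the genes by more than the SD of the alignment-based values: Cd63 had 61.3 and 76.0, Cd53 54.0 and 57.8, Cd37 20.6 and 17.3, Cd81 12.0 and 10.6, and Cd151 2.92 and 1.89. Cd9, with 14.0 and 9.36, and Cd82, with 14.1 and 10.7, stayed within that SD. The genes nearest in level over the 2 libraries were Oasl2 for Cd63, Nckap1l for Cd53, Colgalt1 for Cd37, Orc4 for Cd81, Rpl36 for Cd9, 5031439G07Rik for Cd82 and Tomm40 for Cd151. Likeness was the smallest distance in log2(TPM + 1) over 2 libraries of 1 group and describes level only.

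The 7 genes made up most of the tetraspanin RNA. Of 24 other tetraspanin genes, 7 were detected, 3 of them with a mean of 10 TPM or more. Tspan14, which guides the protease ADAM10 to the cell surface, had 17.7 and 12.8 TPM, Tspan31 had 15.0 and 14.1, and Tspan4, known from migrasomes, had 15.65 and 10.35. These levels were close to that of Cd82 and above that of Cd151. The other detected genes, Tspan3, Tspan13, Tspan17 and Tspan32, had mean levels below 10 TPM. Tspan6, Tspan8, Tspan11, Tspan15 and Upk1b had no read in the alignment-based gene tables, although Tspan15 had 0.70 and 0.52 TPM in the table made directly from the reads; in replicate 2 a count of 3 would have corresponded to 0.17 TPM for Tspan6 and 0.063 TPM for Tspan15, a limit that covers counting error only. Summed over the 31 tetraspanin genes, the 7 held 83.7% of TPM in replicate 1 and 85.6% in replicate 2, and Cd63 with Cd53 alone held 57.4% and 68.1%.

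**Figure D2:**
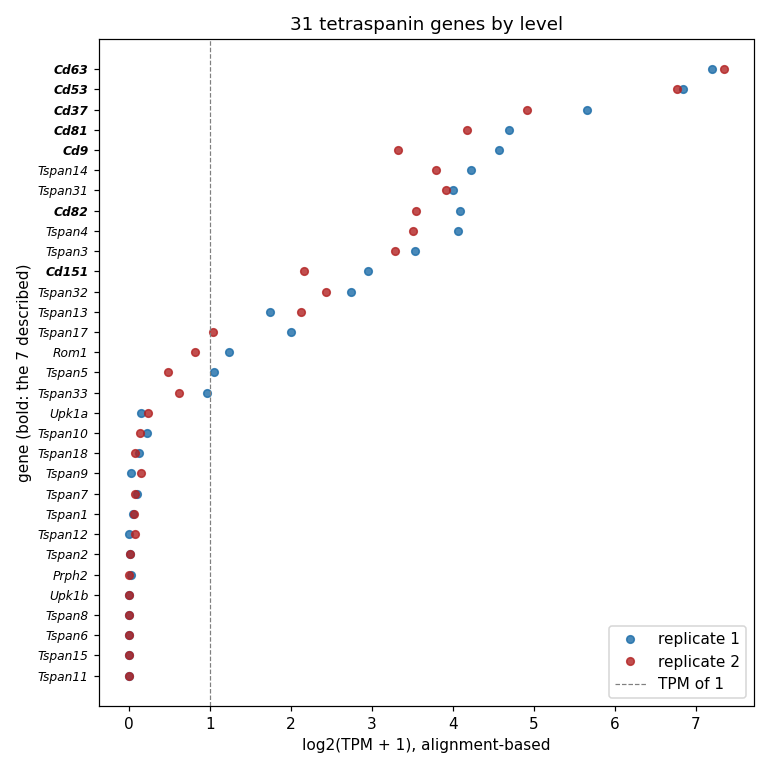
Level of 31 tetraspanin genes as log2(TPM + 1) in each library, ordered by their sum, with the 7 described genes in bold and a dashed line at a TPM of 1. Cd63 and Cd53 stand apart at the top, and Tspan14, Tspan31, Tspan4 and Tspan3 lie among Cd9, Cd82 and Cd151.

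Of 30 genes for known protein partners, 21 were detected, 18 of them with a mean of 10 TPM or more. Among 10 integrin and immunoglobulin-family partners 5 were detected. Itga5 had 235 and 226 TPM, Itga4 136 and 95.5, Itgb1 131 and 81.1, Itga6, a laminin-binding chain that pairs with CD151, 34.8 and 18.2, and Igsf8, which encodes EWI-2, 13.3 and 14.9. Itga3, the other main laminin-binding partner of CD151, had 0.01 and 0.11 TPM, and Ptgfrn, which encodes EWI-F, 0.17 and 0.07. Itga7 had 0.02 and 0.05 TPM, but 2.34 and 1.91 in the table made directly from the reads. Among 9 endosome and vesicle genes 7 were detected. Lamp1 had 311 and 168 TPM, Sdcbp, which encodes the CD63-binding adaptor syntenin-1, 251 and 142, Lamp2 177 and 124, Vps4b 55.6 and 40.2, and Pdcd6ip, which encodes ALIX, 38.7 and 22.3. Timp1, whose product binds CD63, did not reach the detection level in either library, with 0.89 and 0.66 TPM.

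Among 10 immune membrane partners 8 were detected. Cd44 had 275 and 265 TPM, Cd74 120 and 66.7, Cd36, a scavenger receptor, 64.8 and 38.1, Ifitm3 43.05 and 35.85, H2-Aa 40.3 and 19.6, H2-Ab1 40.04 and 21.98, and Clec7a, the beta-glucan receptor that binds CD37, 31.65 and 25.37. Cr2, a complement receptor, had 0.49 and 0.16 TPM, but 1.63 and 4.74 in the table made directly from the reads, where 23 of the 30 partner genes reached the detection level. Adam10 had 19.5 and 11.5 TPM. Of the 6 tetraspanins that escort ADAM10, 2 were detected, Tspan14 and Tspan17; in the table made directly from the reads Tspan33 also reached the level, with 1.23 and 1.41 TPM.

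By scaled expected counts, Cd9 and Cd81 differed between the libraries by more than most genes did. Expected counts were rounded, scaled by the trimmed mean of M-values (TMM) and expressed as log2 CPM (counts relative to the library total), and the difference was taken as replicate 2 minus replicate 1. The log2 ratio was 0.58 for Cd63, 0.42 for Cd53, -0.05 for Cd82, -0.16 for Cd37, -0.37 for Cd151, -0.69 for Cd81 and -0.87 for Cd9. Cd63 and Cd53 were thus higher in replicate 2 and the other 5 lower. The median was -0.16 over the 7 genes and 0.02 over 11348 protein-coding genes that passed a mean expected count of 10. Cd9 and Cd81 were lower in replicate 2 by at least 1.5-fold, as were 6.58% of these protein-coding genes. With counts made directly from the reads their log2 ratios were -0.56 and -0.51, which is under 1.5-fold. None of the 7 was higher by that much, against 5.51% of genes, but Cd63 was just under the line and passed it with DESeq2 size factors (0.59). With 1 library on each side these are differences between libraries, with no test.

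**Figure D3:**
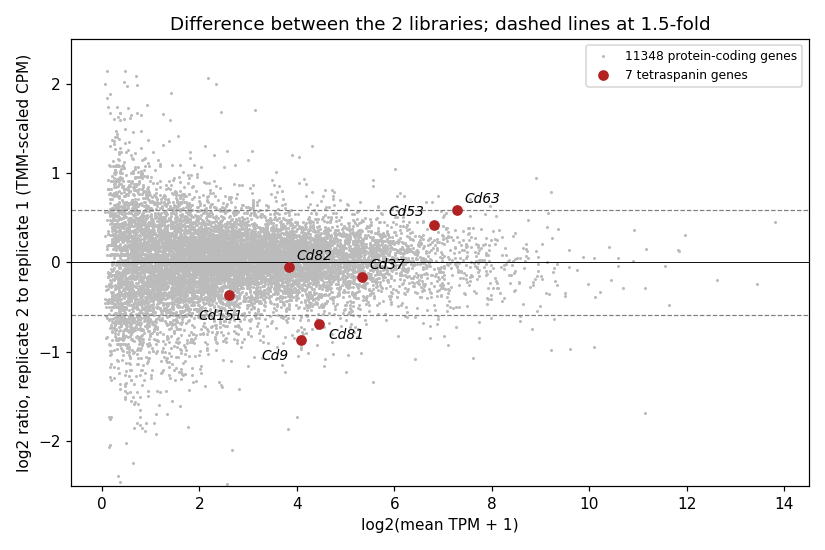
Log2 ratio of replicate 2 to replicate 1 from TMM-scaled CPM against log2(mean TPM + 1), for 11348 protein-coding genes in grey and the 7 genes in red. Cd9 and Cd81 lie below the lower 1.5-fold line and Cd63 at the upper one; 19 genes beyond 2.5 on the vertical axis are not shown.

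TPM gave another picture of the same libraries, because protein-coding genes held a smaller share of it in replicate 2: the median log2 ratio of TPM + 1 over 8810 detected protein-coding genes was -0.41. On this scale 6 of the 7 genes were lower in replicate 2, all but Cd63, and Cd53 turned from 0.42 to -0.07. With TPM rescaled to protein-coding genes Cd53 was again higher in replicate 2, at 0.39. The deposited credibility intervals describe uncertainty in assigning reads within a library and not the spread between libraries. Those of Cd53 overlapped between replicates, at 104.7 to 111.6 and 101.7 to 107.7 TPM. These intervals lie around the posterior mean TPM (108 and 105), not around the TPM itself.

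For Cd81 the difference between the libraries depended on the scale. By TMM-scaled counts its log2 ratio was -0.69 and by TPM + 1 it was -0.51, but by TPM rescaled to protein-coding genes it was -0.07, with 79.6 in replicate 1 and 75.7 in replicate 2. The gene's effective length in the deposited tables, an average over its models, was 1306 bases in replicate 1 and 823 in replicate 2. The full-length model Cd81-201 (1533 bases) held 92.7% of the gene's TPM in replicate 1 and 47.2% in replicate 2. The short model Cd81-204 (586 bases, annotated with an incomplete coding region) held none in replicate 1 and 49.4% in replicate 2, from 86.1 expected counts. Only 75 bases of Cd81-204 lie outside the exons of the other coding models. The table made directly from the reads also gave it more in replicate 2, with 11.4 and 123 estimated counts. What part of the Cd81 level in replicate 2 rests on this assignment was not tested.

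Some of the annotated models include sequence that other models of the gene splice out. The tables assign reads to whole models, so a share on such a model includes reads on exons that it shares with others. Cd37 stood out among the 7. Its highest model in both libraries and both tables was Cd37-204, a model of 6 exons and 2541 bases with a protein-coding label and a coding region of 756 bases. Its last exon runs without a break through introns 6 and 7 of the full-length model Cd37-202, 639 and 705 bases long; 830 of its bases lie in no other coding model. The ends of these introns, where exon bases are in lower case and the retained intron bases in capitals, show the GT and AG of ordinary splice sites.
Cd37 intron 6, start: cacatctaccgtgagGTGGGACTAGCGGTA
Cd37 intron 6, end: CTTCTGCATCCCCAGggctgcgcgcagagc
Cd37 intron 7, start: gtcggtcttcttgagGTGACTTGACCCCGT
Cd37 intron 7, end: CTCCTTTTTTCCCAGctcggcttcatgacg

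The introns lie on chr7:45234768-45235406 and chr7:45233979-45234683, on the reverse strand. Cd37-204 held 38.1% of the gene's TPM in replicate 1 and 45.3% in replicate 2, and 63.0% and 69.9% of its expected counts, 942 and 874 counts. The table made directly from the reads gave it 62.5% and 60.8% of counts. Cd37-202, with all 8 exons spliced and a coding region of 843 bases, held 18.7% and 11.6% of TPM. Cd37-208, 2 exons of which the last runs into intron 2, held 12.3% and 12.6%, and Cd37-209, which runs into intron 7, held 8.26% and 7.20%. No model of Cd37 carries the retained-intron label, so its share under that label was 0 although most of its counts were assigned to an intron-holding model. Among 3675 detected protein-coding genes that have a model holding a whole intron, 17.6% had as large a share of expected counts on such models as Cd37 in replicate 1, and 14.4% in replicate 2. The median over these genes was 21.2% and 20.5% of expected counts. By TPM, which favours long models less, 27.9% and 21.2% of these genes had as large a share as Cd37. By TPM made directly from the reads it was 27.2% and 30.2% of them.

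Cd63 showed the same kind of model at a lower share. Cd63-205 is a single exon of 2894 bases with the retained-intron label, and it runs through all 7 introns of the full-length model Cd63-201, 2054 intron bases in all. The fifth of these introns, at chr10:128912064-128912160 on the forward strand, is the one that precedes the cysteine-cysteine-glycine codons, which follow shortly after its end (retained bases in capitals).
Cd63 intron 5, start: aaattgcagaaagaaGTGAGTGGGATGGCC
Cd63 intron 5, end: CTCTTCCCTTCCTAGaataactgctgtgga

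Cd63-205 held 4.48% and 3.03% of the gene's TPM, but 12.9% and 9.12% of its expected counts, 379 and 374 counts, since a long model takes more reads at the same TPM. The count on it was nearly even between the libraries, while that on Cd63-201 was 2419 in replicate 1 and 3607 in replicate 2. Cd63-201 held 89.7% and 93.4% of TPM. In 62.8% and 68.0% of the 3675 genes with an intron-holding model the share of expected counts on such models was at least as large as in Cd63, so that Cd63 lay below their median. A processed pseudogene on another chromosome, Cd63-ps, shares sequence with Cd63: 49.6% of the 31-base stretches of Cd63-201 also occur in another gene, and 519 of the 617 such stretches over all models of Cd63 occur in Cd63-ps. How the deposited counts divide reads between the genes is uncertain. The pseudogene had 20.6 and 9.26 expected counts against 2937 and 4106 for Cd63.

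**Figure D4:**
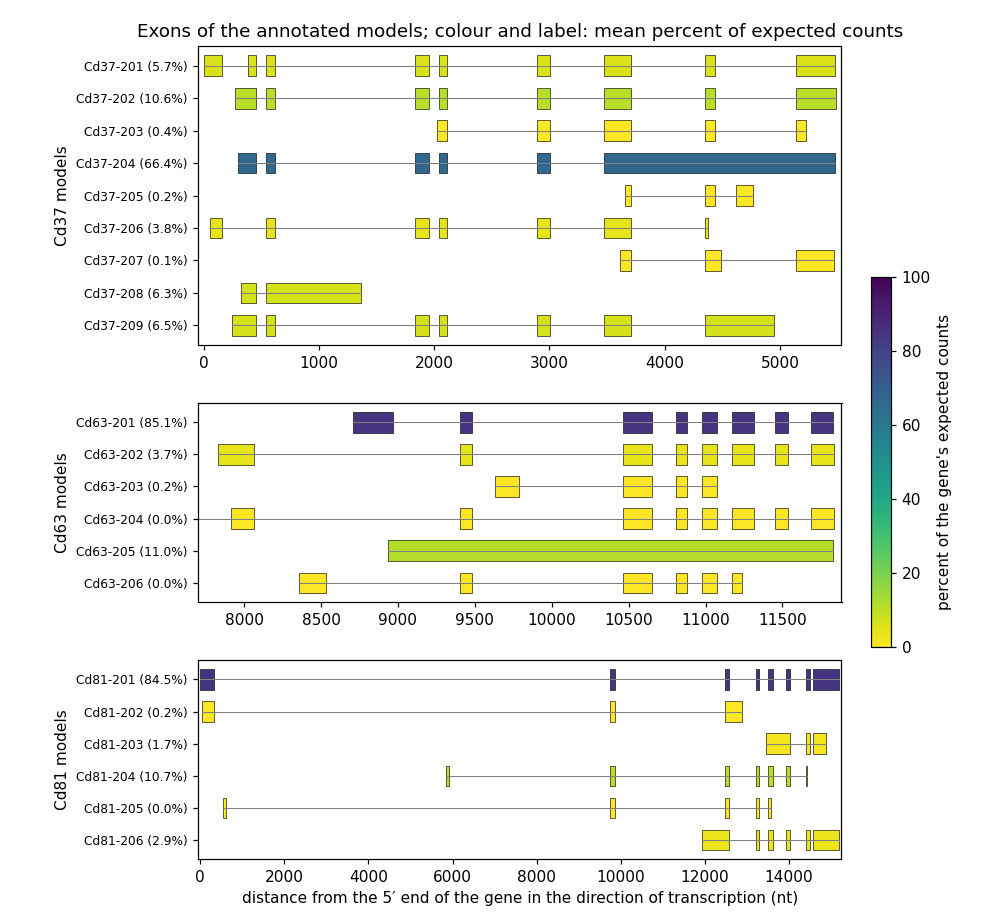
Exons of the annotated models of Cd37, Cd63 and Cd81 against distance in bases from the gene's 5′ end, coloured and labelled by the mean percent of the gene's expected counts over the 2 libraries; the Cd63 axis starts near the main models and leaves out the distant first exon of Cd63-204, which had no count. The unbroken last exon of Cd37-204 and the single exon of Cd63-205 cover whole introns of the models above them.

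For Cd9 the tables differed about 1 model. Cd9-203, 2 exons and 786 bases with the retained-intron label, begins inside intron 4 of the coding model Cd9-201 and reads through the end of that intron, at chr6:125462411-125462440 on the reverse strand (retained bases in capitals).
Cd9 intron 4, end: GTCTGTCCCTCATAGgtgattaaagaactc

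It held 2.51% and 6.31% of the gene's TPM in the alignment-based table, 7.08 and 9.00 expected counts. In the table made directly from the reads it held 30.1% and 47.9% of TPM, from 146 and 212 estimated counts. The gap was 27.6 percentage points in replicate 1 and 41.6 in replicate 2. Among 5736 detected protein-coding genes with a retained-intron model, 6.50% and 3.49% had a gap at least as large, and the median gap was 2.07 and 3.44 points. Of the 756 stretches of 31 bases in Cd9-203, 148 also occur in transcripts of other genes, and 1 of them in 717 other genes; the part of this repeated sequence in the gap was not tested. In the alignment-based table Cd9-201 held 97.5% and 93.7% of TPM.

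Cd82 and Cd151 had reads on several models with the same coding length. For Cd82, 4 models carry a coding region of 798 bases, and 3 of them had reads. Cd82-201 held 41.3% and 19.2% of TPM, Cd82-205 26.0% and 45.2%, and Cd82-202 9.28% and 19.9%. The table made directly from the reads placed essentially nothing on Cd82-205 and instead 24.5% and 34.3% on Cd82-202 and 32.3% and 32.7% on Cd82-211, a shorter model with an incomplete coding region. Which Cd82 model was highest was thus not settled between the tables. The non-coding model Cd82-209 held 22.4% and 15.7% of TPM in the alignment-based table. For Cd151, Cd151-202 held 63.2% and 45.8% and Cd151-203 19.1% and 46.1%, both with a coding region of 759 bases. Cd53 has 1 annotated model only. Other genes lie on the opposite strand over parts of Cd9, Cd81, Cd151, Cd37 and Cd82, and since the use of strand in counting is not given, their reads cannot be told apart from those of the 5 genes.

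In the 4 genes that have retained-intron models, these held less than the median share in the alignment-based table. The share of TPM was 4.48% and 3.03% in Cd63, 7.29% and 3.34% in Cd81, 2.51% and 6.31% in Cd9, and 15.4% and 8.07% in Cd151. The median over the 5736 detected protein-coding genes with such a model was 26.6% and 25.2%. By share of expected counts this median was 14.7% and 14.0%. Cd63 was nearer to it on that measure, with 12.9% and 9.12%, while Cd81, Cd9 and Cd151 were further below. Cd37, Cd53 and Cd82 have no model with the retained-intron label. In the table made directly from the reads the share was 9.50% and 16.0% in Cd81 and 18.4% and 13.7% in Cd151, and the median over the same genes was 31.7% and 32.3%, below the value of Cd9 in replicate 2.

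**Figure D5:**
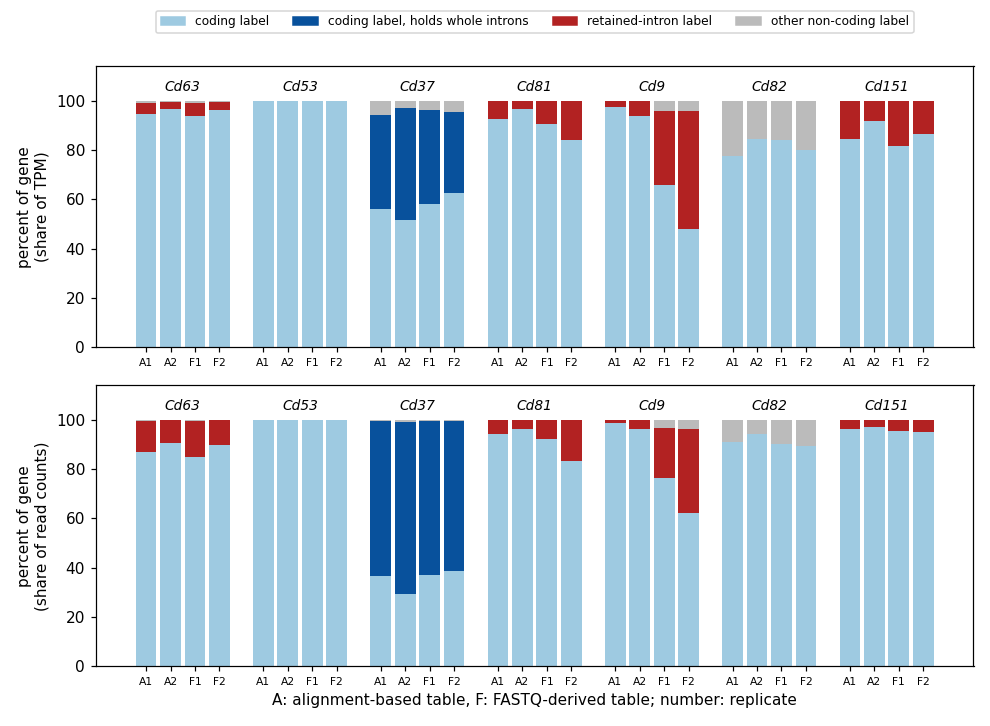
Share of each gene's TPM (upper panel) and read counts (lower panel) by kind of model, for the alignment-based table (A) and the table made directly from the reads (F) in replicates 1 and 2. The dark blue part of Cd37, its coding-labelled model that holds whole introns, is above 60% of counts in all 4 bars, and the red retained-intron part of Cd9 is large in the table made directly from the reads only.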

How the data were processed

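Total RNA-seq of 2 libraries was used. The deposited gene and transcript tables hold expected counts, TPM, FPKM, posterior mean TPM, the percent of a gene in each model and the bounds of a credibility interval of the TPM signal, from transcriptome alignments, per the file headers. The deposited FASTQ-derived transcript tables hold estimated counts and TPM. The build is mm10, per the labels, and models follow GENCODE M21. No quantifier, version or strand setting was given in the sources used here. Values of a gene in FASTQ-derived tables are sums over its models. Detection was a TPM of at least 1 in both libraries. Expected counts were rounded, filtered at a mean of 10 and scaled with edgeR 4.0.16 (TMM, prior count 2), and the ratio was tested on simulated data. DESeq2 1.42.0 size factors were an alternative. A pseudocount of 1 was used for TPM ratios. An intron counted as held where 1 exon of a model covers an intron of a coding model of the same gene entirely. The members and lists were chosen with earlier results of these data known. All 7 genes were named. Of the context lists, genes with a mean TPM of at least 10 were named with values. Lower ones were given by count and those at 0 by name. Itga3, Itga7, Ptgfrn, Timp1, Cr2, Pf4, Gp9, Kdr, Cd3d, Pecam1, Tspan3, Tspan13, Tspan17, Tspan32 and Tspan33 were named after their values were seen.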

Additional observations from a re-analysis of the deposited data

How the results depend on the processing

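The level scale moved the median of the 7 genes from 20.97 TPM to 12.4 with TPM made directly from the reads, 26.9 with FPKM and 77.7 with TPM over protein-coding genes only. Leaving out each replicate gave a median of 17.09 to 24.84. All 7 genes were detected in the table made directly from the reads, 6 at 5 TPM and 5 at 10 TPM. Leaving out replicate 1 put Cd82 before Cd9, and 5 of 7 ranks were kept. The Cd53 ratio reversed only with TPM + 1 (-0.072). The median share on non-coding models was 4.55% of TPM and 11.6% with TPM made directly from the reads. Other tetraspanins detected were 12 at 0.1 TPM, 4 at 5 TPM and 3 at 10 TPM, against 7. The intron-holding share of Cd37 was 41.7% of TPM and 35.7% of TPM made directly from the reads, against 66.4% and 61.6% of the corresponding counts, alternatives chosen after seeing the data. No paired analysis was possible because the data hold 1 group. Depth limits Cd151 most, with 202 and 146 expected counts; the strand setting is not given, so reads of antisense neighbours cannot be told apart from those of Cd9, Cd81, Cd151, Cd37 and Cd82. The cause of these differences was not tested.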

Other observations

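Several of the 7 genes overlap other annotated genes. Gm10804, a long non-coding RNA on the strand opposite to Cd82, had 3.91 and 1.42 TPM in the alignment-based table and overlaps Cd82 over 10322 bases. Mir7001, a microRNA gene inside Cd82 on its own strand, had no expected count but 17.9 and 6.17 TPM in the table made directly from the reads. Tead2, whose end overlaps the end of Cd37 by 13 bases on the opposite strand, had 0.37 and 0.28 TPM in the alignment-based table and 4.82 and 10.3 in the other. The antisense gene Gm28809 inside Cd9 had 0.40 and 0.13 TPM, and 3.30 and 4.09 TPM when made directly from the reads. R74862, opposite Cd81, had 0.85 and 0.46 TPM, and Gm10575, opposite Cd151, had 0.53 and 0.23. The pseudogene Cd9-ps is listed at 0 in both tables.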
